A study of Mus musculus with 2 samples.

Results

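The interleukin-6 family genes examined here were 10 genes chosen by symbol: the shared receptor subunit Il6st, the receptors Lifr, Osmr, Il31ra, Il6ra, Cntfr and Il11ra1, and the cytokines Il6, Lif and Il11. Of these 10, 8 were among the 13281 genes listed in the deposited expression table. Cntfr and Il11 were not listed and have no value here. Values are in CPM, read counts scaled to a common library size, and the lowest in either library was 1.02 CPM, so genes that are nearly silent in one culture have no row. RNA was sequenced from 661W cells, a mouse line established from a retinal tumor driven by SV40 T antigen and regarded as cone photoreceptor-like. The 2 cultures were compared at 1 library each: cells carrying the empty pBABE-Puro retroviral vector, and cells carrying the same vector with full-length human TRPM1 behind an N-terminal 3xFLAG tag (3xF-TRPM1). Both vectors carry puromycin resistance. Both cultures grew in DMEM with 10% serum under standard conditions with no cytokine named. Human TRPM1 reads have no row in the mouse table and mouse Trpm1 was not analysed here, so the labels were not checked against the transgene.

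Interleukin-6 family cytokines signal through paired receptor chains on the cell surface. Most of them use gp130, the product of Il6st, which carries no ligand specificity of its own and joins LIF receptor, oncostatin M receptor or a ligand-binding chain such as the interleukin-6 or interleukin-11 receptor. Interleukin-31 is the exception, since its receptor pairs the Il31ra product with the oncostatin M receptor. Ligand binding activates JAK kinases bound to these chains, which phosphorylate STAT3, and SOCS3 limits the signal. In the retina, LIF and ciliary neurotrophic factor are known as survival factors of stressed photoreceptors.

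The promoters of 4 members are shown because they cover the most abundant gene, the gene with the largest difference, and both cytokines with values. Each is a RefSeq window on GRCm38.p6 of 250 bases before and 50 after the gene start, 5′ to 3′ on the strand of the gene. Capitals mark matches to TTCNNNGAA, the spaced palindrome bound by STAT dimers, or to TGAGTCA, the core bound by AP-1, on either strand. The AP-1 core was added after the sequences had been seen. The windows are chr13:112463820-112464119 (plus strand) for Il6st, chr13:112580613-112580912 (minus strand) for Il31ra, chr11:4257318-4257617 (plus strand) for Lif and chr5:30012864-30013163 (plus strand) for Il6.
Il6st: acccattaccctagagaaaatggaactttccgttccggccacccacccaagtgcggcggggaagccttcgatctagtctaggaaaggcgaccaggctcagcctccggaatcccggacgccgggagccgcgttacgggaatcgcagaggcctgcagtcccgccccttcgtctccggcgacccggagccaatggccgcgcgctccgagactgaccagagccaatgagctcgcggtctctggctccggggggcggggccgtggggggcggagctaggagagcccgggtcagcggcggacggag
Il31ra: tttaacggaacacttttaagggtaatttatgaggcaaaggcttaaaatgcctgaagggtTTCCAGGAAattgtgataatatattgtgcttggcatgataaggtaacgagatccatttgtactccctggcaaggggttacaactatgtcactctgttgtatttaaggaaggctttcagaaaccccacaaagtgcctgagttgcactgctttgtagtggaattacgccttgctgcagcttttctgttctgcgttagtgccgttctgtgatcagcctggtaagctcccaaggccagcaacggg
Lif: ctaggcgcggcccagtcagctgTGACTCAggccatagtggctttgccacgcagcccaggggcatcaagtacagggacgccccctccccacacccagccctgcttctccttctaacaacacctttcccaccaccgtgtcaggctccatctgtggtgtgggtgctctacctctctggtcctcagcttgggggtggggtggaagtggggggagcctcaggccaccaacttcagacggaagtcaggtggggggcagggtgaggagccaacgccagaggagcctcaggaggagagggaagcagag
Il6: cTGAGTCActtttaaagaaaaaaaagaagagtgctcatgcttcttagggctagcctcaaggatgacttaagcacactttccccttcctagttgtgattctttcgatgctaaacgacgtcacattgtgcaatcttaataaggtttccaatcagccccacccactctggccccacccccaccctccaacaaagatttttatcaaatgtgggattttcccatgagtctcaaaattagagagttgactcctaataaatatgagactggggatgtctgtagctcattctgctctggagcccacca

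Of the 18 windows that matched the 10 members, the Il31ra window was the only one with TTCNNNGAA, and its match, TTCCAGGAA, began 191 bases before the annotated start. The match also fits the tighter palindrome TTCCNGGAA, which lies within the first motif and is not a separate one. TTCNNNGAA occurs in 8.30% and TTCCNGGAA in 1.15% of 32851 promoter windows of the same length. A match to TTCNNNGAA in 1 of 18 windows is unremarkable at a share of 8.30%. The AP-1 core was present in 1 window of each of the 3 cytokine genes (3 of 4 windows) and in none of the 14 windows of the 7 receptor genes, against 5.20% of all windows. Because this core was chosen from these same sequences, the comparison is no test. Of the 14 receptor windows, 6 belong to Cntfr, and several of those overlap. At 5.20% of windows, none among 14 is also unremarkable. The windows also differed in composition. The Il6st window had 33 CpG dinucleotides and 68.3% G and C, and the Il31ra window had 6 and 44.7%, with a median over all windows of 7 and 52.7%. These are matches of letters in a window and not measured binding. The Il31ra start used by RefSeq lies inside the gene as GENCODE draws it, which begins further upstream.

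The signalling chains made up nearly all of the family's transcripts, and their order hardly moved between the cultures. Levels are compared between genes as CPM per kilobase of gene length, with 95% exact Poisson intervals that cover counting error only. Il6st stood at 66.4 (65.2 to 67.6) CPM per kilobase with the empty vector and 94.0 (92.6 to 95.4) with 3xF-TRPM1, the highest of the 8 in both. Osmr followed at 19.9 (19.3 to 20.5) and 22.4 (21.7 to 23.0), and Lifr at 16.3 (15.7 to 16.9) and 22.2 (21.5 to 22.9). Osmr was therefore above Lifr in the empty vector library, while in the 3xF-TRPM1 library their intervals overlapped. The ligand-binding chains were lower. Il11ra1 was at 5.54 (5.01 to 6.10) and 5.92 (5.40 to 6.48), and Il6ra at 2.53 (2.28 to 2.80) and 2.55 (2.30 to 2.81) CPM per kilobase. These 5 receptors kept their places in both libraries.

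The bottom of the order changed. In the empty vector library, Lif at 1.28 (1.03 to 1.57) and Il6 at 1.13 (0.829 to 1.51) CPM per kilobase could not be separated, and Il31ra was lowest at 0.558 (0.418 to 0.731). In the 3xF-TRPM1 library Il31ra, at 1.59 (1.35 to 1.86), and Il6, at 1.38 (1.05 to 1.78), overlapped, and Lif was lowest at 0.743 (0.563 to 0.962). In reads rather than per length, Il6st took 60.8% (exact binomial interval 60.1 to 61.5%) of the 20279 reads of the 8 members with the empty vector and 64.5% (63.9 to 65.1%) of 28529 with 3xF-TRPM1. The share of Osmr was 19.9% (19.3 to 20.5%) and 16.8% (16.3 to 17.2%).

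**Figure D1:**
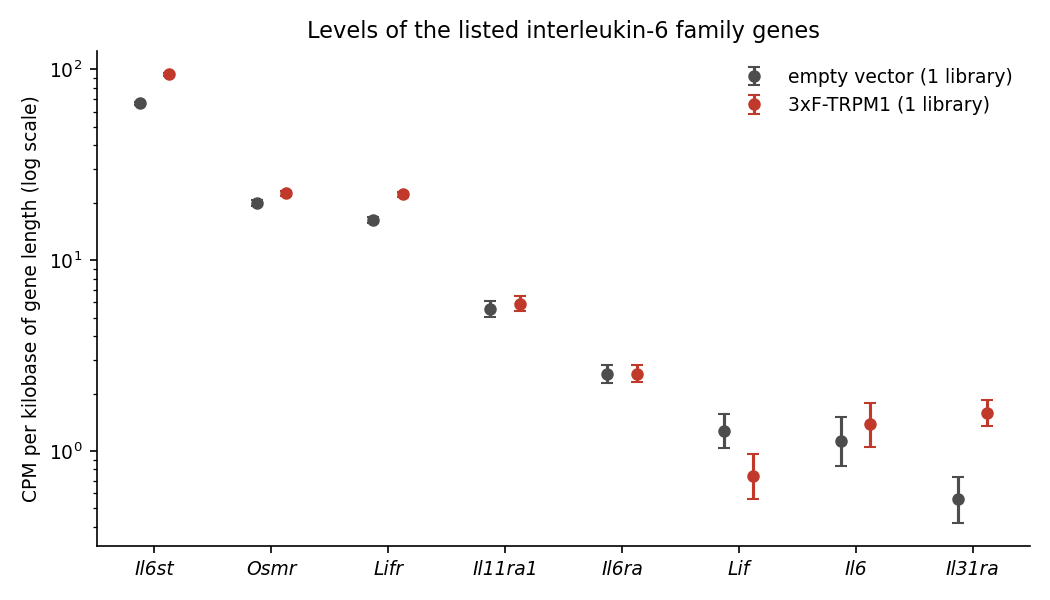
Level of each listed member in CPM per kilobase of gene length (log axis) in the empty vector library (grey) and the 3xF-TRPM1 library (red), 1 library each; bars are 95% Poisson intervals. Il6st is highest in both, and Il31ra and Lif exchange places at the bottom, from 0.558 to 1.59 and from 1.28 to 0.743.

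Differences between the cultures were taken as log2(CPM + 0.5) of 3xF-TRPM1 minus empty vector, and the added 0.5 CPM shrinks the fold of genes with few reads. A gene was called higher or lower when the difference reached 1.5-fold and the 95% exact (Clopper-Pearson) interval of the read ratio lay wholly on one side of 1-fold. This interval uses no added 0.5 CPM and covers counting error between these 2 libraries only. With 1 library per condition there is no replicate check and no test of the condition. Of the 8 members, 1 was called higher (Il31ra) and 1 lower (Lif), against 3.91% and 3.07% of all listed genes. On the interval alone, with no fold threshold, 4 of 8 were above 1-fold and 1 was below, against 23.1% and 19.7% of all listed genes. The members' median log2 fold change was 0.21 and that of all listed genes 0.0093. Intervals of abundant genes are narrow, so such genes pass on smaller differences.

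Il6st (ENSMUSG00000021756; GRCm38 chromosome 13, 112464070 to 112510086, plus strand), the gp130 gene, was at 737 CPM (724 to 750; 12331 reads) in the empty vector library and 1043 CPM (1028 to 1058; 18402 reads) with 3xF-TRPM1. The log2 fold change was 0.50 (95% interval 0.47 to 0.53), short of 1.5-fold but well outside counting error. Among 53 listed genes with a mean CPM within 20% of its own, 4 had a log2 fold change at least as large. Lifr (chromosome 15, 7090614 to 7197489, plus strand), which binds LIF and joins gp130, was at 176 CPM (170 to 182; 2941 reads) and 239 CPM (232 to 246; 4217 reads). Its log2 fold change was 0.44 (0.38 to 0.51). Osmr (chromosome 15, 6813577 to 6874969, minus strand), the chain for oncostatin M and interleukin-31, was at 241 CPM (234 to 249; 4035 reads) and 271 CPM (263 to 279; 4780 reads), with a log2 fold change of 0.17 (0.11 to 0.23). All 3 chains were thus higher in the 3xF-TRPM1 library beyond counting error, and none of them by 1.5-fold.

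Il31ra (ENSMUSG00000050377; chromosome 13, 112519898 to 112594360, minus strand), the specific chain for interleukin-31, had the largest difference. It was at 3.17 CPM (2.37 to 4.14; 53 reads) with the empty vector and 9.01 CPM (7.67 to 10.5; 159 reads) with 3xF-TRPM1. The log2 fold change was 1.37 (1.05 to 1.99), a fold of 2.59 on the CPM + 0.5 scale. It ranked at place 40 of the 13281 listed genes by log2 fold change, and of 727 genes with a mean CPM within 20% of that of Il31ra, 4 reached it. Of its 5673 exonic bases, 45 are shared with the overlapping pseudogene Gm3226, which was at 7.71 and 8.84 CPM.

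The ligand-binding chains showed no difference beyond counting error. Il6ra (chromosome 3, 89864059 to 89913196, minus strand), the interleukin-6 receptor, was at 21.9 CPM (366 reads) and 22.0 CPM (388 reads), with a log2 fold change of 0.0075 (-0.20 to 0.22), and this value changed sign under both other scalings of the libraries. Of the exonic bases of Il6ra, 2.80% are shared with an overlapping gene that is not listed. Il11ra1 (chromosome 4, 41699989 to 41769474, plus strand), the interleukin-11 receptor, was at 24.7 CPM (414 reads) and 26.5 CPM (467 reads), with a log2 fold change of 0.095 (-0.10 to 0.29). Its level is uncertain, because 29.1% of the 100-base stretches of its transcripts also occur in transcripts of Il11ra2 or Gm13305. For every other member this share was 0%.

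Among the cytokines, Lif (ENSMUSG00000034394; chromosome 11, 4257557 to 4272514, plus strand) was called lower. Leukemia inhibitory factor was at 5.56 CPM (4.49 to 6.81; 93 reads) with the empty vector and 3.23 CPM (2.45 to 4.19; 57 reads) with 3xF-TRPM1. The log2 fold change was -0.70 (-1.28 to -0.29), and of 680 genes with a mean CPM within 20% of that of Lif, 52 were as low or lower. A minimum mean of 5 CPM removes Lif, and it did not reach 2-fold. Il6 (chromosome 5, 30013114 to 30019981, plus strand) was at 2.75 CPM (46 reads) and 3.34 CPM (59 reads), with a log2 fold change of 0.24 (-0.30 to 0.87), so a difference was not detectable at this depth.

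**Figure D2:**
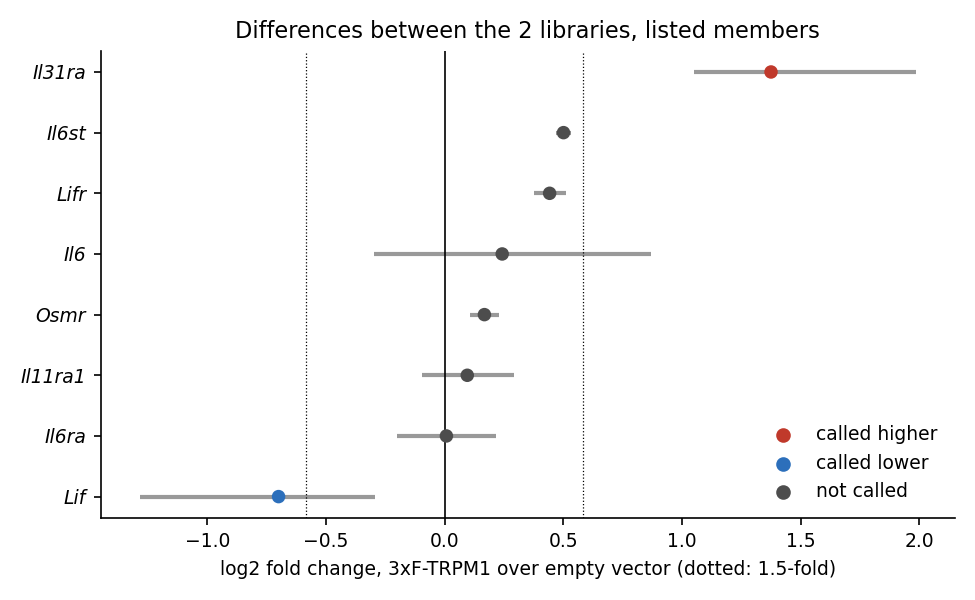
Log2 fold change of 3xF-TRPM1 over empty vector (points, with 0.5 CPM added) and 95% counting interval of the read ratio (bars) for the 8 listed members. Il31ra (1.37) lies to the right of the dotted 1.5-fold lines and Lif (-0.70) to the left, and Il6st, Lifr and Osmr have short bars above 0.

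The balance between chains was compared as a ratio of read ratios, which does not depend on how the libraries were scaled. There were 9 such pairs, picked with the values already known, and the intervals are exact conditional 95% intervals for counting error. Il6st gained 1.26-fold (1.20 to 1.32) on Osmr and Lifr gained 1.21-fold (1.14 to 1.29) on Osmr, while for Il6st against Lifr the ratio was 1.04 (0.987 to 1.10). Lifr per kilobase was 0.819 of Osmr with the empty vector and 0.992 with 3xF-TRPM1. Il31ra gained 2.53-fold (1.84 to 3.53) on its partner chain Osmr, and stood per kilobase at 0.0280 and 0.0710 of it. Lif against its receptor Lifr changed by a ratio of 0.427 (0.301 to 0.603). The ligand-binding chains lost ground to gp130, with ratios of 0.710 (0.613 to 0.823) for Il6ra and 0.756 (0.659 to 0.867) for Il11ra1.

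Several receptor genes lie next to each other in the genome. Il6st and Il31ra on chromosome 13 point towards each other with 9811 bases and no annotated gene between them. Osmr and Lifr on chromosome 15 point away from each other across 216 kb with no protein-coding gene between them, and Cntfr and Il11ra1 on chromosome 4 do so across 2899 bases. On the other side of Il6st, the nearest listed gene was Ankrd55, at 80067 bases. Ankrd55, which encodes an ankyrin repeat protein, was at 3.71 and 7.09 CPM, differing by 0.85 (0.48 to 1.40) on the log2 scale, and was called higher. Next to it, Map3k1, a MAP kinase kinase kinase gene 655076 bases from Il6st, was at 0.37 (0.20 to 0.55) and was not called, and Mier3 was at 0.080 (-0.047 to 0.21). Map3k1, Ankrd55, Il6st and Il31ra, 4 listed genes in order, thus had intervals above 1-fold. This run was picked after its values were seen, and 23.1% of all listed genes had such intervals. On the side of Il31ra, Gm3226 was at 0.19 (-0.15 to 0.55) and Ddx4, a germ cell RNA helicase, at 0.13 (-0.44 to 0.73), while Slc38a9, an amino acid transporter gene beyond them, was at 0.23 (0.03 to 0.45). Around Lifr and Osmr the neighbours did not share a direction: Dab2, an endocytic adaptor, had a log2 fold change of 0.40, Rictor, a subunit of mTOR complex 2, was at 120 CPM in both libraries and Gdnf, a neurotrophic factor, was at -0.21. Of 42 listed genes within 3 places of a member, 2 were called higher, Ankrd55 and the prostaglandin receptor gene Ptger4, and 0 lower. Over all listed genes, 3.91% were called higher and 3.07% lower. The median log2 fold change of the 42 neighbours was 0.011. Whether the counting used strand is not given in the sources used here, so reads that run past one gene into the facing one could not be told apart.

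**Figure D3:**
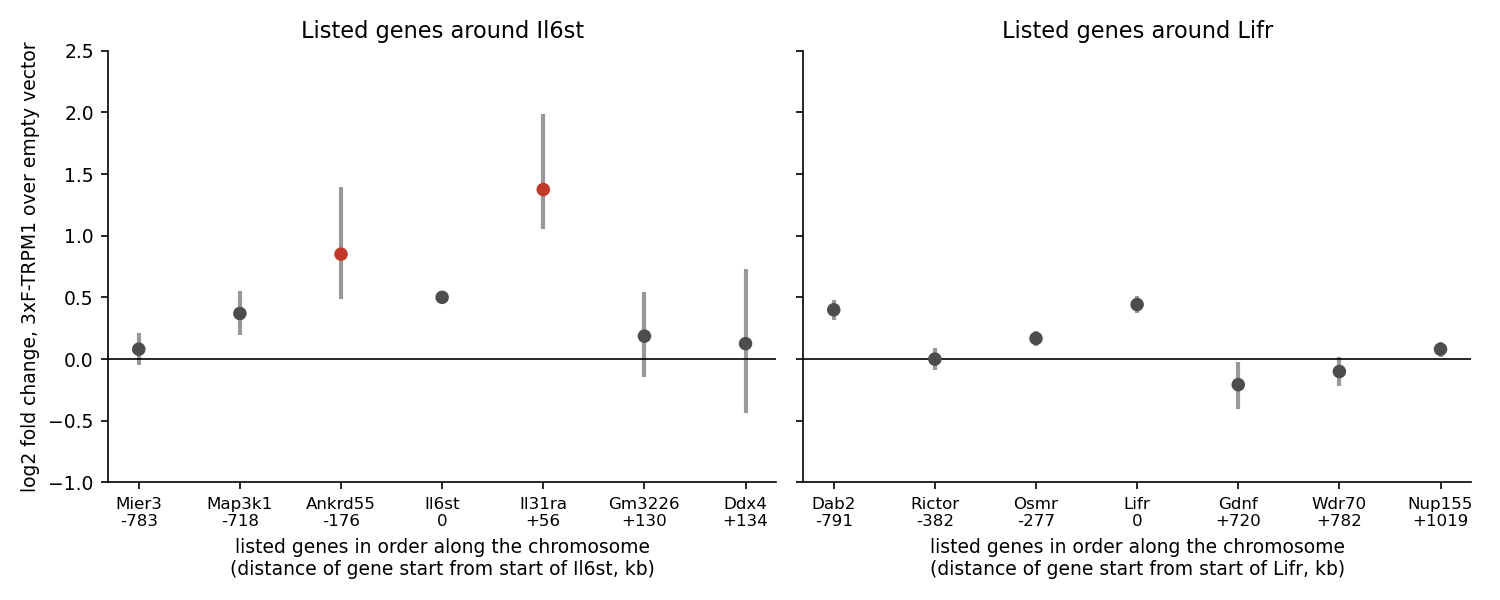
Log2 fold change (points) and 95% counting interval (bars) of listed genes in order along the chromosome around Il6st (left) and Lifr (right), with the distance of each gene start in kb; red marks genes called higher. Map3k1, Ankrd55, Il6st and Il31ra (0.37, 0.85, 0.50 and 1.37) have bars above 0, as do 23.1% of all listed genes. The genes around Lifr lie on both sides of 0.

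Of 19 further ligands and receptors of the family and its close relatives, 7 were listed. Of these 7, 1 was called higher and 1 lower, against 3.91% and 3.07% of all listed genes. Clcf1, a cytokine ligand of the CNTF receptor, was at 44.8 and 42.3 CPM, with a log2 fold change of -0.08 (-0.23 to 0.07). Lepr, the leptin receptor, which is built like gp130, was at 3.41 CPM (57 reads) and 1.76 CPM (31 reads) and was called lower, at -0.79 (-1.64 to -0.30). The cytokines Ctf1 (log2 fold change 0.14) and Cntf (-0.011) and the receptors Il27ra (0.34) and Il23r (0.078) all had intervals including 1-fold, and none exceeded 95 reads. The other 12 genes, among them the ligands Osm and Il31, were not listed.

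Downstream of the receptors, none of the 18 kinases, STATs and adaptors was called, against 3.91% higher and 3.07% lower among all listed genes. All 18 were listed, and 6 intervals lay above and 6 below 1-fold, against 23.1% and 19.7% of all listed genes. The median log2 fold change of the 18 was 0.013. Among the larger differences were the adaptor Gab2 at -0.42, the kinase Tyk2 at -0.41 and Stat5a at 0.36, as log2 fold changes. The core components, named here outside the rule after their values were seen, were at 224 and 240 CPM for Jak1, 159 and 161 CPM for Jak2 and 171 and 180 CPM for Stat3, the last with a log2 fold change of 0.075 (0.002 to 0.149). Of 15 inhibitors, all listed, none was called, and the median was 0.11. Of their intervals, 6 were above and none below 1-fold, against the same 23.1% and 19.7% of all listed genes. At a mean of at least 5 CPM, the largest differences were Socs2 at 0.50, the phosphatase gene Ptpn1 at 0.40, the STAT inhibitor gene Pias2 at 0.24 and Socs4 at 0.21, all log2 fold changes. Socs3, the inhibitor that binds gp130, again named outside the rule, was at 19.5 and 19.1 CPM, with a difference of -0.028 (-0.25 to 0.20) on the log2 scale.

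Of 33 genes known to respond to STAT3, 27 were listed, and 16 of these had a log2 fold change above 0. Of the 27, 1 was called higher and none lower, against 3.91% and 3.07% of all listed genes. There were 10 intervals above and 6 below 1-fold, against 23.1% and 19.7%, and the median log2 fold change was 0.12. The one called was Klf4, a pluripotency and differentiation factor, at 52.1 and 92.2 CPM (log2 fold change 0.82, 0.71 to 0.95). The immediate early gene Egr1 was at 0.58, the acute phase serpin gene Serpina3n at 0.55 and the survival gene Bcl2l1 at -0.43. Of 5 genes of receptor shedding, none was called and 4 intervals were above 1-fold, against 23.1% of all listed genes. Adam17, the protease that cleaves the interleukin-6 receptor from the surface, was at 204 and 277 CPM (log2 fold change 0.44, 0.38 to 0.50), and its inhibitor Timp3 at 379 and 514 CPM (0.44, 0.40 to 0.49). Adam10, a related protease, was at 0.067, and Rhbdf1 and Rhbdf2, which bring Adam17 to the surface, at 0.21 and 0.085.

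**Figure D4:**
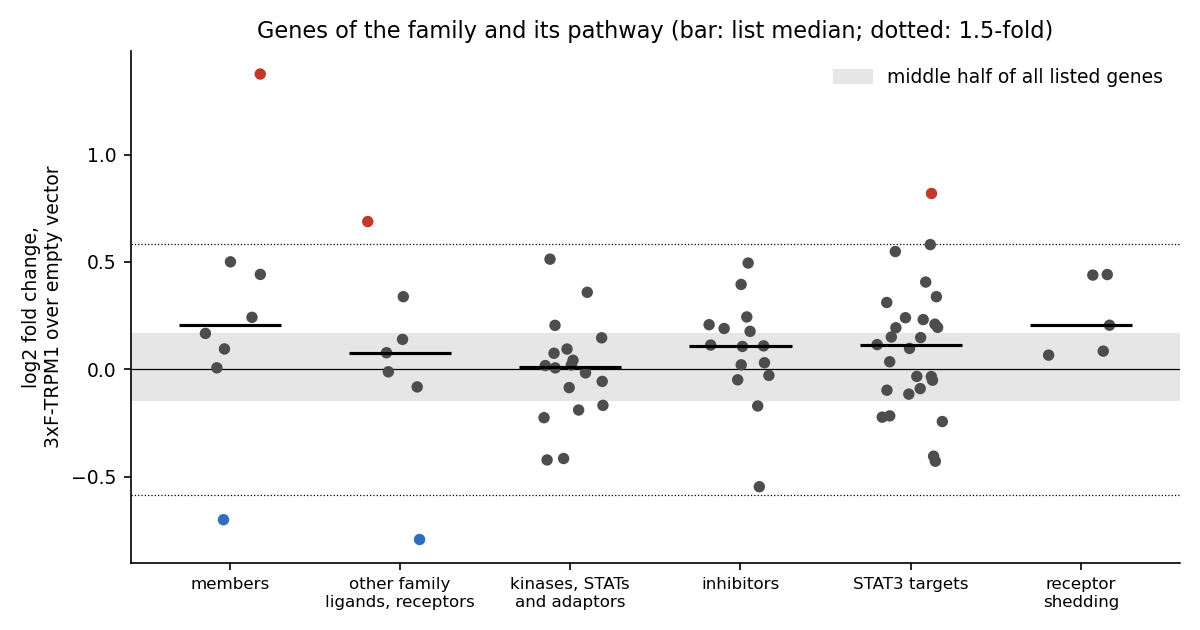
Log2 fold change of each listed gene by group, with the group median (bar), the 1.5-fold lines (dotted) and the quartile range of all listed genes (grey band); red and blue mark genes called higher and lower. The kinases, STATs and adaptors centre on 0.013, the inhibitors on 0.11 and the STAT3 targets on 0.12, against 0.21 for the members.

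The listed genes of the whole table held 16404444 reads with the empty vector and 17869838 with 3xF-TRPM1. The cone label had little support among listed genes: of 14 cone markers only Gnat2 was listed, at 2.57 and 2.49 CPM. Of 12 fibroblast and stromal markers 11 were listed and 8 were called higher, against 3.91% of all listed genes. Their summed level, with no division by gene length, was 9826 and 17270 CPM, of which Postn alone held 5193 and 9328 CPM. Mueller glia and astrocyte markers had 7 of 12 listed and 4 called higher, against the same 3.91%. Their summed level was 1376 and 1813 CPM, of which Vim held 652 and 653 CPM and Slc1a3 held 527 and 819 CPM. Of 10 macrophage and leukocyte markers only Cd68 (81 and 52 reads) and Cd14 (185 and 108 reads) were listed. Both were called lower, against 3.07% of all listed genes, with a summed level of 15.9 and 9.07 CPM. Ptprc and Csf1r were among those not listed, so the direction rests on these 2 genes. The part of these cell types in the members' differences was not tested, and in bulk RNA fewer cells of a type and less RNA per cell cannot be told apart. With 1 library of each culture, the transgene and anything else that set the cultures apart cannot be told apart.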

How the data were processed

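RNA of 661W cells was sequenced by the authors as 1 library per condition, after library preparation with the KAPA mRNA HyperPrep Kit. Reads were aligned to GRCm38 with HISAT2 2.1.0, counted with featureCounts 2.0.0, and taken into edgeR 3.28.1 and DESeq 1.40.0, per the methods and the submitters' processing notes. The deposited table gives CPM values by the authors, which were used as deposited. Its 2 columns repeating the CPM values, its columns of fold changes and p-values, and the deposited table of Gene Ontology enrichment were not used. How the CPM were scaled, and whether counting used strand, is not given in the sources used here. The deposited gene lengths, of a kind other than a measurement, equal the exonic length in GENCODE release M21 for 13275 genes, so its GRCm38 coordinates were used.

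Reads were worked back from the CPM step of each library (100% of values whole within 0.01), which gives effective library sizes of 16728172 and 17639743 reads. The lowest values were 17 and 18 reads. Requiring a mean CPM of 1 or more removed 0 genes. No count test was run, since 1 library per group leaves no residual spread. 125 missing or date-like symbols were restored from the identifier. Members and lists were chosen with earlier results of these data known. Named were all members, all listed genes of the lists of other family genes and of shedding, genes of other lists that were called or among the 4 largest differences at a mean of at least 5 CPM, called neighbours, and the 3 genes nearest to Il6st and Il31ra. Neighbours not called, core signalling genes and markers were named after their values were seen. Some genes that the rule names are not reported here. The calling was run on simulated reads that held counting error only. That check therefore cannot show how the calls hold against spread between cultures. Alternatives were 2 other scalings, pseudocounts of 0.1 and 1, filters at none and at a mean CPM of 5, a 2-fold threshold, the interval alone, and levels with no division by length. Promoter windows are RefSeq sequences on GRCm38.p6, and all 10 members matched. Computing used Python 3.11.15 with scipy 1.17.1, numpy 2.4.6 and pandas 2.3.3, and plots matplotlib 3.10.9.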

Additional observations from a re-analysis of the deposited data

How the results depend on the processing

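Under total count and median-of-ratios scaling and pseudocounts of 0.1 and 1, Il31ra remained called higher and Lif lower, with log2 fold changes from 1.26 to 1.48 and from -0.76 to -0.63. A mean of at least 5 CPM or a 2-fold threshold left 0 members called lower, since Lif was removed or fell short. With the interval alone, 4 members were called higher (Il31ra, Il6st, Lifr and Osmr). Il6ra changed sign, to -0.0384 under total count scaling and -0.0019 under median-of-ratios scaling, both with intervals including 1-fold. Lepr and Klf4 fell short of 2-fold, at -0.79 and 0.82. Over all genes, 519 were called higher and 408 lower; a mean of at least 5 CPM gave 351 and 217, a 2-fold threshold 115 and 117, and the interval alone 3070 and 2615. Total count scaling moved the median of all genes by -0.0449. Without division by length, 2 members (Il31ra and Il6) changed place in the order of levels with the empty vector and 0 with 3xF-TRPM1. No paired analysis was possible because each condition has 1 library. Il31ra, Lif and Il6 rest on 46 to 159 reads per library, which limits their precision.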

Other observations

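With 2 libraries, a gene's pattern is 1 ratio, and the genes nearest to a member are those with a like mean CPM (within 20%) and the closest log2 fold change. For Il6st, among 53 such genes, these were Fbln2, an extracellular matrix fibulin (887 and 1227 CPM, log2 fold change 0.47), Anxa1, a calcium-dependent phospholipid-binding protein (721 and 920 CPM, 0.35), and Acta2, smooth muscle actin (569 and 905 CPM, 0.67). For Il31ra, among 727, they were Myo5c, an unconventional myosin (3.35 and 7.88 CPM, 1.12), Slc17a8, a vesicular glutamate transporter (2.87 and 10.0 CPM, 1.64), and Sh2d4a, an SH2 domain protein (2.09 and 7.71 CPM, 1.66). The likeness is that of 1 ratio and of level, and nothing further was tested.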
